A study of Mus musculus with 8 samples.

Results

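The 10 antioxidant enzyme genes described here were chosen by name from the deposited table of 37991 genes: the superoxide dismutases Sod1 and Sod2, catalase (Cat), the glutathione peroxidases Gpx1, Gpx3 and Gpx4, the mitochondrial peroxiredoxin Prdx3 with its electron donor thioredoxin 2 (Txn2), the heme oxygenase Hmox1 and the quinone reductase Nqo1. All 10 were present and all 10 passed the filter on low counts, among 12466 genes tested. RNA had been sequenced from adult heart muscle cells of mice carrying alpha-MHC MERCREMER and MADM, whose hearts were injected with adenovirus for 4 cell cycle genes and whose cells were isolated 2 weeks later. In this background a Cre recombinase that is activated by tamoxifen is made under the alpha myosin heavy chain promoter of cardiomyocytes, and MADM (mosaic analysis with double markers) leaves some cells with a single fluorescent color after recombination and division. The 4 single colored libraries are labelled as cells that went through the cell cycle, and the 4 double colored libraries as cells given the same injection that did not; no uninjected or control-virus group was among the samples, so both groups share the adenovirus and the genotype. Whether the replicates are separate animals is not stated in the labels, so each p-value reflects the scatter of these libraries, part of which may be technical.

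Superoxide is formed as a by-product of respiration and by dedicated oxidases. Superoxide dismutases turn it into hydrogen peroxide, in the cytosol (Sod1) and in the mitochondrial matrix (Sod2), and catalase, glutathione peroxidases and peroxiredoxins then remove the peroxide. Heme oxygenase 1 and Nqo1 are classical targets of the transcription factor NRF2, which is released from its inhibitor Keap1 by oxidants and electrophiles. The heart is rich in mitochondria, and oxidative damage to DNA has been proposed as a brake on the cardiomyocyte cell cycle after birth.

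The 8 libraries held 23820700 to 30082278 reads, of which 77.5% to 88.3% fell on mitochondrially encoded genes, leaving 3503353 to 6112595 nuclear-encoded reads. The mitochondrial share was 84.2% to 88.3% in double and 77.5% to 85.9% in single colored libraries. Nuclear-encoded reads were 3503353 to 3850391 in double and 3750616 to 6112595 in single colored libraries. The groups thus differed in usable depth, with overlap. The 10 genes together had 6119 to 6958 reads per library in double and 6672 to 11005 in single colored libraries. Cardiomyocyte markers were present at high levels in every library, with a summed level of 12 markers of 23409 to 30873 CPM in double and 14501 to 26608 CPM in single colored libraries; CPM are read counts divided by library size, which was adjusted by TMM factors (scaling factors that set most genes level between libraries). With TMM all 12 had negative log2 fold changes (median −0.44). None passed the test, and 2 did with the replicate number as a block, Pln and Tnni3 (edgeR adjusted p = 0.0366 and 0.0423). Single colored replicate 1 had the lowest sum. Some other cell types had higher marker sums in single colored libraries. The 12 macrophage and myeloid markers summed to 128 to 167 CPM in double and 226 to 380 CPM in single colored libraries. The 12 lymphocyte markers summed to 1.84 to 4.61 and 17.6 to 36.0 CPM. The 8 fibroblast markers summed to 300.2 to 738 and 623 to 1848 CPM, which overlap. No marker of these lists was at 0 in all libraries. The fibroblast list was divided: 6 log2 fold changes were positive and 2 negative (Dcn −0.10 and Tcf21 −0.79), and 1 marker passed the edgeR test on group alone. With the block 4 of the 8 passed, all higher in single colored cells, beside 4.97% of all tested genes. These were Col1a1, Col1a2, Col3a1 and Postn (edgeR adjusted p = 9.47e-07, 1.16e-05, 0.00026 and 0.000187). Endothelial markers overlapped between groups (138 to 185 and 136 to 169 CPM), and 1 passed with the block, Vwf, higher in single colored cells (edgeR adjusted p = 0.0105). The 8 smooth muscle and pericyte markers had lower sums in single colored libraries without overlap (425 to 559 and 330 to 423 CPM). Most of that sum was Rgs5, with means of 305 CPM in double and 231 CPM in single colored libraries. The list was divided: of 7 tested, 3 log2 fold changes were positive and 4 negative. Each of the 7 overlapped between groups. None passed the edgeR test on group alone, and 1 did with the block, Abcc9, lower in single colored cells (edgeR adjusted p = 0.00604). In RNA from pooled cells, fewer cells of a type and less RNA per cell cannot be told apart.

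The selenium enzymes among the 10 show their chemistry in the coding sequence. Gpx1, Gpx3 and Gpx4 each use selenocysteine in the active site, written as an in-frame TGA that elsewhere means stop. The 3 windows below, read from the GENCODE vM21 coding sequences, are shown because this codon sets the 3 apart from the other members; capitals mark the TGA, with 15 bases on each side. It is codon 47 of 201 in Gpx1, codon 73 of 226 in Gpx3 and codon 129 of 253 in the Gpx4 transcript used, and each has 1 such codon.
Gpx1: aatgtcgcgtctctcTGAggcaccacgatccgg
Gpx3: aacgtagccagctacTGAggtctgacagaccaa
Gpx4: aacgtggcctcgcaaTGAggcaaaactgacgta
Copies elsewhere in the genome limit what was counted for some members. Of all stretches of 50 bases in the Gpx4 transcript, 61.7% also occur in transcripts of other genes, nearly all in the pseudogene Gpx4-ps2, and 23.1% of those of Sod1 occur in Gm8566. For Sod2 the share was 1.43%, and for the other 7 members it was 0. The alignment names point to a mapping quality of 30, and the handling of reads with several matches is otherwise not stated, so the levels of Gpx4 and, in part, Sod1 are uncertain.

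The promoters were searched for TGACNNNGC, a core of the antioxidant response element bound by NRF2, on both strands in the 300 bases of RefSeq promoters (GRCm38.p6; 250 before to 50 after the start). Promoters were found for 9 of the 10 members, all except Hmox1. Of the 12 promoters of these 9 genes, 1 held the motif, that of Sod1, against 12.4% of 32851 promoters in the table. Of 46 wider antioxidant genes with a promoter, members and oxidant producers aside, 13 held it in at least 1 promoter (28.3%). That share counts genes, some with several promoters, while the 12.4% counts promoters, so they are not a like comparison. The Sod1 match is shown beside those of Prdx1 and Gclm, textbook NRF2 targets outside the 10, with the motif in capitals and 10 bases on each side; all 3 lie on the minus strand of genes transcribed from the plus strand.
Sod1, chr16:90220696-90220724: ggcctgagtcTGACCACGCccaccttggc
Prdx1, chr4:116685456-116685484: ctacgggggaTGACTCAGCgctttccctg
Gclm, chr3:122245413-122245441: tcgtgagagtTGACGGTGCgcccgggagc
A match of these letters is a description and not a bound site. Sequence outside this window was not searched, so a promoter without a match does not mean a gene without the element. None of the 3 genes passed the test between groups: the log2 fold change was −0.34 for Sod1, −0.09 for Prdx1 and 0.20 for Gclm.

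Hmox1 was the 1 member that differed between groups. It degrades heme to biliverdin, iron and carbon monoxide, is induced by heme and oxidants, and is abundant in macrophages that take up red cells. The gene (ENSMUSG00000005413, mm9 chromosome 8, 77617490 to 77624495) stood at 1.97, 3.14, 6.18 and 1.67 CPM in double colored replicates 1 to 4. In single colored replicates 1 to 4 it stood at 9.14, 7.50, 6.71 and 8.37 CPM. The groups did not overlap, but double colored replicate 3 lay close to the lowest single colored library. Hmox1 was 2.45-fold higher in single colored cells, a log2 fold change of 1.29 ± 0.32 (SE, n = 4 each; 95% interval 0.61 to 1.97), with an adjusted p of 0.0448 by edgeR's quasi-likelihood test over all genes. Of the genes tested, 2.48% passed this test (2.32% higher and 0.16% lower in single colored cells), so that 1 call among 10 members is a small count to set beside the background. In the edgeR fit on group alone, the call rested on all libraries being present. It was lost in 7 of 8 omissions of 1 library, with adjusted p from 0.0622 without single colored replicate 3 to 0.138 without double colored replicate 4, and kept only without double colored replicate 3, where the log2 fold change was 1.81 (adjusted p = 0.00341). The other omissions gave adjusted p of 0.102 and 0.112 without double colored replicates 1 and 2, and 0.134, 0.0732 and 0.0936 without single colored replicates 1, 2 and 4. Without both libraries numbered 1 it was 0.211 (log2 fold change 1.04). With all 8 libraries, the adjusted p was 0.00539 with the replicate number as a block (edgeR) and 0.00560 with DESeq2. With the filter at 5 CPM it was 0.0656 (edgeR). The omissions were not run with the block. The direction was positive in all these fits.

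**Figure D1:**
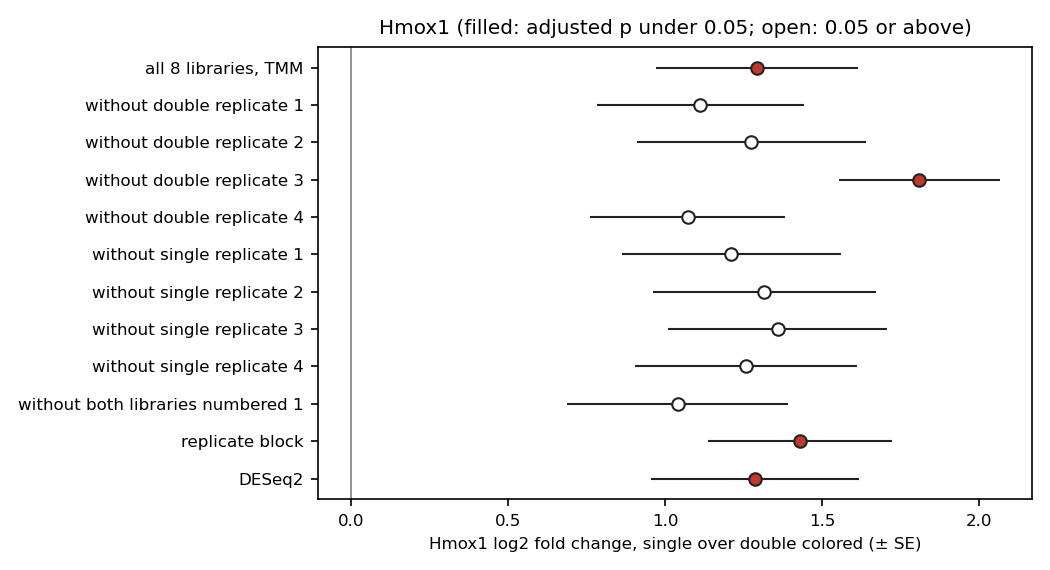
Log2 fold change of Hmox1, single over double colored (x axis, with SE bars), with all 8 libraries, without each library in turn, without both libraries numbered 1, with the replicate number as a block and with DESeq2. The values run from 1.04 to 1.81, and red filled points mark an adjusted p under 0.05.

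Of the 12 macrophage and myeloid markers, 5 rose and 1 fell in single colored cells by the edgeR test on group alone. Of all tested genes 2.32% rose and 0.16% fell. With the block 8 of the 12 rose and 1 fell, beside 4.97% and 2.57% of all tested genes. Ctss, a lysosomal protease, had a log2 fold change of 2.30 ± 0.21 and the integrin Itgam one of 1.52 ± 0.16 (edgeR adjusted p = 8.05e-05 and 0.000259). The marker that fell was Cd163, the macrophage receptor that takes up hemoglobin bound to haptoglobin, at 4.20 ± 1.63 CPM in double and 1.52 ± 0.431 CPM in single colored cells (log2 fold change −1.47 ± 0.33, adjusted p = 0.0240). Its groups overlapped. Of the 12 markers 10 log2 fold changes were positive and 2 negative, the other being Mrc1 (−0.40 ± 0.17, edgeR adjusted p = 0.276). In double colored replicates 1 to 4 the myeloid sum was 166, 167, 142 and 128 CPM, where Hmox1 stood at 1.97, 3.14, 6.18 and 1.67 CPM. In single colored replicates 1 to 4 the sum was 380, 281, 226 and 250 CPM, where Hmox1 stood at 9.14, 7.50, 6.71 and 8.37 CPM. Hemoglobin and other erythroid markers, 8 in the table, summed to 1.96 to 38.9 CPM in double and 5.16 to 26.5 CPM in single colored libraries, which overlap, and none of the 5 tested passed. The part of these cells in the Hmox1 result was not tested.

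Nqo1, the other NRF2 target among the members, reduces quinones without forming radicals. It (ENSMUSG00000003849, chromosome 8, 109912125 to 109927106) stood at 10.2, 6.41, 11.7 and 7.77 CPM in double and 6.50, 5.58, 13.5 and 9.45 CPM in single colored replicates 1 to 4. The groups overlapped throughout, and the highest library of each group was replicate 3. Its log2 fold change was −0.04 ± 0.26 (95% interval −0.59 to 0.51, edgeR adjusted p = 0.971), an interval that reaches neither a doubling nor a halving. Its sign changed with the library left out (−0.34 without single colored replicate 3, 0.12 without single colored replicate 2).

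Both superoxide dismutases had lower means in single colored cells, and neither passed the test. Sod1 (ENSMUSG00000022982, chromosome 16, 90220987 to 90226567), the copper and zinc enzyme of the cytosol, stood at 32.6, 27.7, 28.3 and 27.7 CPM in double colored replicates 1 to 4. In single colored replicates 1 to 4 it stood at 20.6, 24.8, 23.3 and 22.9 CPM. All 4 single colored libraries lay below all 4 double colored ones, by a log2 fold change of −0.34 ± 0.13 (unadjusted p = 0.0202, adjusted p = 0.220, and 0.103 with the block, edgeR). Sod1 and Hmox1 were the 2 members of 10 without overlap between groups, against 9.14% of all tested genes. Sod2 (ENSMUSG00000006818, chromosome 17, 13200705 to 13210985), the manganese enzyme of the mitochondrial matrix, was measured at 70.7, 78.2, 87.2 and 84.6 CPM in double and 35.1, 61.1, 74.4 and 71.8 CPM in single colored replicates 1 to 4. Its groups overlapped, and single colored replicate 1 lay far below the rest. The log2 fold change was −0.40 ± 0.20 (edgeR adjusted p = 0.359, and 0.0512 with the block), with −0.22 without single colored replicate 1 and −0.53 without single colored replicate 3.

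**Figure D2:**
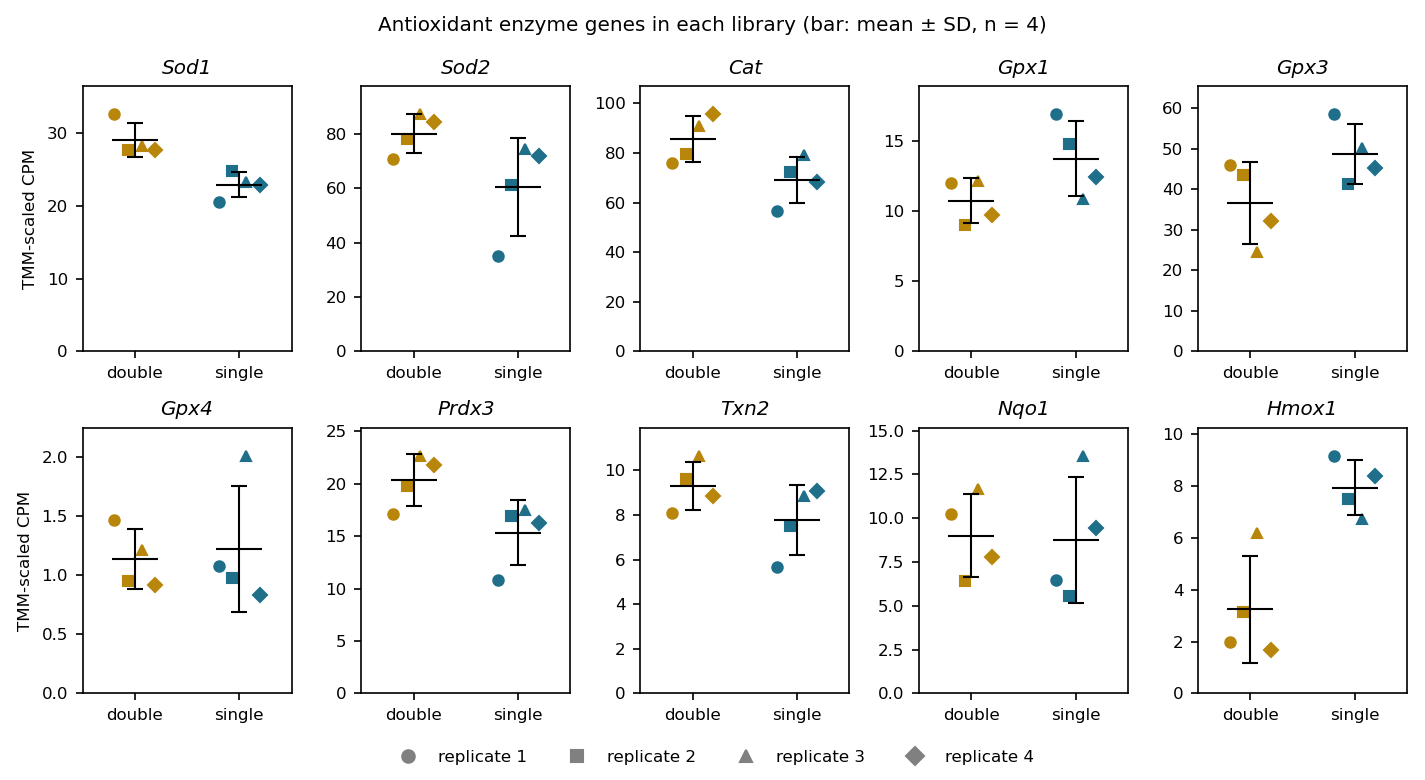
TMM-scaled CPM (y axis, from 0) of each of the 10 genes in the 4 double and 4 single colored libraries, with the replicate number as the marker shape and the mean ± SD (n = 4) as a black bar. Only Sod1 and Hmox1 have groups that do not overlap, and single colored replicate 1 is the lowest library for Sod1, Sod2, Cat, Prdx3 and Txn2.

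Catalase, Prdx3 and Txn2 likewise had lower means in single colored cells without passing the test. Cat (ENSMUSG00000027187, chromosome 2, 103294006 to 103325317), which splits hydrogen peroxide in peroxisomes, stood at 76.2, 79.6, 91.0 and 95.6 CPM in double and 56.7, 72.5, 79.0 and 68.4 CPM in single colored replicates 1 to 4. The ranges overlapped only through single colored replicate 3, and the log2 fold change was −0.31 ± 0.15 (edgeR adjusted p = 0.367). Prdx3 (ENSMUSG00000024997, chromosome 19, 60939954 to 60950459), the peroxiredoxin of the matrix, stood at 17.1, 19.8, 22.6 and 21.8 CPM in double and 10.8, 16.9, 17.5 and 16.2 CPM in single colored replicates 1 to 4. Its log2 fold change was −0.41 ± 0.17 (unadjusted p = 0.0274, adjusted p = 0.257, and 0.0516 with the block, edgeR), and only single colored replicate 3 lay above the lowest double colored library. Txn2 (ENSMUSG00000005354, chromosome 15, 77745477 to 77759436), which passes electrons to Prdx3, stood at 8.08, 9.63, 10.6 and 8.86 CPM in double and 5.66, 7.50, 8.87 and 9.09 CPM in single colored replicates 1 to 4. Its groups overlapped widely (log2 fold change −0.26 ± 0.19, edgeR adjusted p = 0.568), and without single colored replicate 1 the log2 fold change was −0.14. For each of Sod1, Sod2, Cat, Prdx3 and Txn2 the sign stayed negative in all 8 omissions of 1 library.

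The 3 glutathione peroxidases had higher means in single colored cells, and no call was made for them. Gpx1 (ENSMUSG00000063856, chromosome 9, 108241607 to 108242671), found in cytosol and mitochondria, stood at 12.018, 8.998, 12.1 and 9.74 CPM in double and 16.9, 14.8, 10.9 and 12.4 CPM in single colored replicates 1 to 4 (log2 fold change 0.36 ± 0.17, edgeR adjusted p = 0.353). Without single colored replicate 1 its log2 fold change was 0.24. Gpx3 (ENSMUSG00000018339, chromosome 11, 54715955 to 54723879), a secreted enzyme of plasma, stood at 46.1, 43.6, 24.5 and 32.2 CPM in double and 58.5, 41.3, 50.1 and 45.3 CPM in single colored replicates 1 to 4. Its log2 fold change was 0.42 ± 0.19 (unadjusted p = 0.0435, adjusted p = 0.311, and 0.0757 with the block, edgeR), and 0.26 without double colored replicate 3 (unadjusted p = 0.170). Both genes had overlapping groups, and both were highest in single colored replicate 1. Gpx4 (ENSMUSG00000075706, chromosome 10, 79509911 to 79519184), which reduces lipid peroxides in membranes, had 21 to 77 reads per library. It stood at 1.47, 0.954, 1.21 and 0.919 CPM in double and 1.07, 0.977, 2.00 and 0.833 CPM in single colored replicates 1 to 4. Its interval of −0.68 to 0.91 on the log2 scale is wide, and its sign turned to −0.25 without single colored replicate 3.

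Over the 10 members, 4 log2 fold changes were positive and 6 negative, with a median of −0.15 beside −0.01 over all tested genes. The sign of the 6 depended on the scale to which a library was set. Scaled to the 12 cardiomyocyte markers instead of TMM, a choice made after the marker levels were seen, the median of all genes moved to 0.51. On that scale Sod2 had a log2 fold change of 0.01 ± 0.18, Prdx3 0.05 ± 0.22, Sod1 0.15 ± 0.23, Cat 0.17 ± 0.19 and Txn2 0.20 ± 0.26, each a difference from the markers smaller than its SE. Relative to the median of all genes the 5 lay at −0.31 (Txn2) to −0.50 (Sod2). Gpx3, Gpx1 and Hmox1 lay above the markers, at 0.98 ± 0.31, 0.93 ± 0.32 and 1.87 ± 0.40 (edgeR adjusted p = 0.0735, 0.0900 and 0.0131). With library totals alone, where all genes moved by 0.48, Hmox1 (1.75, adjusted p = 0.00213), Gpx3 (0.97, 0.0103) and Gpx1 (0.84, 0.0345) passed the edgeR test. Relative to the median of all genes under that scale, Gpx3 and Gpx1 lay at 0.48 and 0.35, close to their TMM values.

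**Figure D3:**
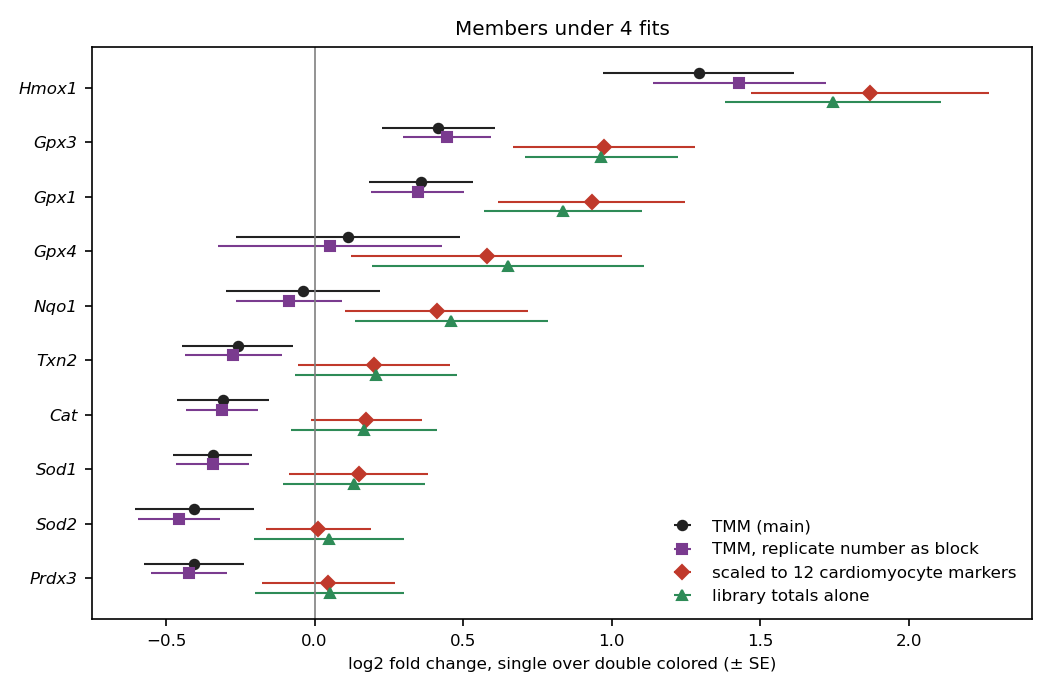
Log2 fold changes with SE bars (x axis) of the 10 genes (y axis) under TMM, TMM with the replicate number as a block, scaling to 12 cardiomyocyte markers and library totals alone. Under the last 2 all genes move to the right by about the same amount, and Sod1, Sod2, Cat, Prdx3 and Txn2 then lie between 0.01 and 0.21.

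Levels between genes were compared per kilobase of annotated exon (RPKM, TMM-scaled). In double colored cells the order was Sod1 (45.0 ± 3.68), Cat (32.7 ± 3.52), Sod2 (21.0 ± 1.92), Gpx3 (20.2 ± 5.56), Prdx3 (13.7 ± 1.66), Gpx1 (12.7 ± 1.88), Nqo1 (5.81 ± 1.52), Txn2 (2.21 ± 0.259), Hmox1 (1.499 ± 0.953) and Gpx4 (0.679 ± 0.152; SD, n = 4 each). Neighbours overlapped between libraries from Sod2 down to Gpx1 and from Txn2 down to Gpx4, while Sod1, Cat, Gpx1 and Nqo1 stood clear of the gene after them. In single colored cells Sod1 was again first at 35.5 ± 2.69, followed by Gpx3 at 26.9 ± 4.09, whose range overlapped those of Sod1 and of Cat (26.5 ± 3.58). Hmox1, at 3.67 ± 0.488, then lay above Txn2 (1.85 ± 0.375) with no overlap. The exon length is the deposited one. It can join exons of several isoforms, which lowers the value of genes with long rare exons, and the copies described above may lower Gpx4 and Sod1. For Sod2 and Gpx1 it is 3824 and 847 bases, shorter than the transcripts Sod2-201 (5861) and Gpx1-201 (1072). The places of Sod2 and Gpx1 therefore also depend on the length used. For Txn2 the exon length is 4208 bases, while the transcript Txn2-201 has 1298. The places of Txn2 below Nqo1 and below Hmox1 therefore depend on the length used and are uncertain.

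Of 67 further genes of redox metabolism, all tested, 4 rose and none fell by edgeR's test, which called 2.48% of all tested genes, and the median log2 fold change was 0.08. An unadjusted p under 0.05 was reached by 18 of the 67, against 15.1% of all tested genes. The 67 include 10 oxidant producers, of which 7 had an unadjusted p under 0.05. In the 57 others 1 rose and none fell, 11 had an unadjusted p under 0.05 (edgeR), and the median log2 fold change was −0.05. Of the 67, DESeq2 called 5 higher and 1 lower, against 4.19% of the same 12466 genes. With the replicate number as a block 7 rose and 7 fell, where 7.53% of all genes passed (4.97% higher, 2.57% lower). Of the 4, 3 encode parts of the phagocyte NADPH oxidase, which makes superoxide: the membrane subunit Cybb (11.6 ± 3.13 to 27.1 ± 11.004 CPM, log2 fold change 1.23 ± 0.25, adjusted p = 0.0167), the cytosolic subunit Ncf1 (1.5002 ± 0.29, 0.0103) and the GTPase Rac2 (1.54 ± 0.32, 0.0163). Ncf1, which shares 9.98% of its exon bases with Gtf2ird2 on the other strand, kept its call in all 8 omissions of 1 library (up to 0.0430), while that of Cybb was lost without double colored replicate 4 (0.0648). For Rac2 it was lost without double colored replicate 2 (0.0552), double colored replicate 4 (0.0706) and single colored replicate 1 (0.0880). Cyba, the partner of Cybb in the membrane, lay at 1.17 ± 0.35 on the log2 scale (adjusted p = 0.106, and 0.0459 with the block). Xanthine dehydrogenase (Xdh), another source of superoxide, went from 12.6 ± 1.46 to 19.1 ± 3.37 CPM without overlap (adjusted p = 0.0604, and 0.00802 with the block). These oxidase genes are expressed in leukocytes, and the myeloid sum of 226 to 380 CPM in single colored libraries stands above the 128 to 167 CPM of double colored ones; its part was not tested.

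The fourth gene was Slc7a11, the cystine importer that feeds glutathione synthesis. It had 10 reads in all double colored and 100 in all single colored libraries, 0.108 ± 0.0553 and 0.754 ± 0.342 CPM (log2 fold change 2.76 ± 0.62, edgeR adjusted p = 0.0249). Its call was lost without double colored replicate 1, 2 or 4 (0.0753, 0.0869 and 0.0834) and without single colored replicate 1 or 4 (0.131 and 0.0683). The other 11 genes of glutathione synthesis and transfer did not pass. The transferase Gstm1 lay lower without overlap, at 19.9 ± 2.53 CPM in double and 12.8 ± 3.03 CPM in single colored cells (log2 fold change −0.64 ± 0.18, adjusted p = 0.0768, and 0.00509 with the block), and the transferases Gstk1 and Gsta4 had −0.64 ± 0.26 and −0.46 ± 0.19 (adjusted p = 0.245 and 0.251; Gstk1 0.0487 with the block).

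In the thioredoxin and glutaredoxin group none of 13 genes passed. Txn1, the cytosolic counterpart of Txn2, stood at 8.85 ± 0.685 CPM in double and 11.9 ± 0.355 CPM in single colored cells, without overlap (log2 fold change 0.43 ± 0.15, edgeR adjusted p = 0.160), and its reductase Txnrd1 had 0.50 ± 0.18, also without overlap (0.197). The methionine sulfoxide reductase Msrb2 of mitochondria lay at −0.69 ± 0.22 (0.122, and 0.0459 with the block). Extracellular Sod3 had 0.73 ± 0.25 (0.157, and 0.0187 with the block). Of 9 NADPH-supplying genes none passed: the mitochondrial Idh2 and Nnt had −0.47 ± 0.22 and −0.40 ± 0.20 (0.323 and 0.359; 0.0238 and 0.0357 with the block), and the pentose phosphate enzyme Tkt had 0.42 ± 0.22 (0.391). Among 8 genes of the NRF2 system none passed with or without the block. Its partner Mafk and its competitor Bach1 had 0.40 ± 0.21 and 0.36 ± 0.20, and the autophagy receptor Sqstm1, which binds Keap1, 0.26 ± 0.19 (0.389, 0.425 and 0.569). In heme and iron handling beside Hmox1, Hmox2, the constitutive heme oxygenase, had −0.56 ± 0.26, the last enzyme of heme synthesis Fech −0.29 ± 0.14 and the iron exporter Slc40a1 0.61 ± 0.42 (0.325, 0.359 and 0.543). Cdip1, transcribed from the other strand, shares 40.2% of the exon bases of Hmox2. Whether counting used strand is not stated, so how reads in these shared bases were counted is uncertain.

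**Figure D4:**
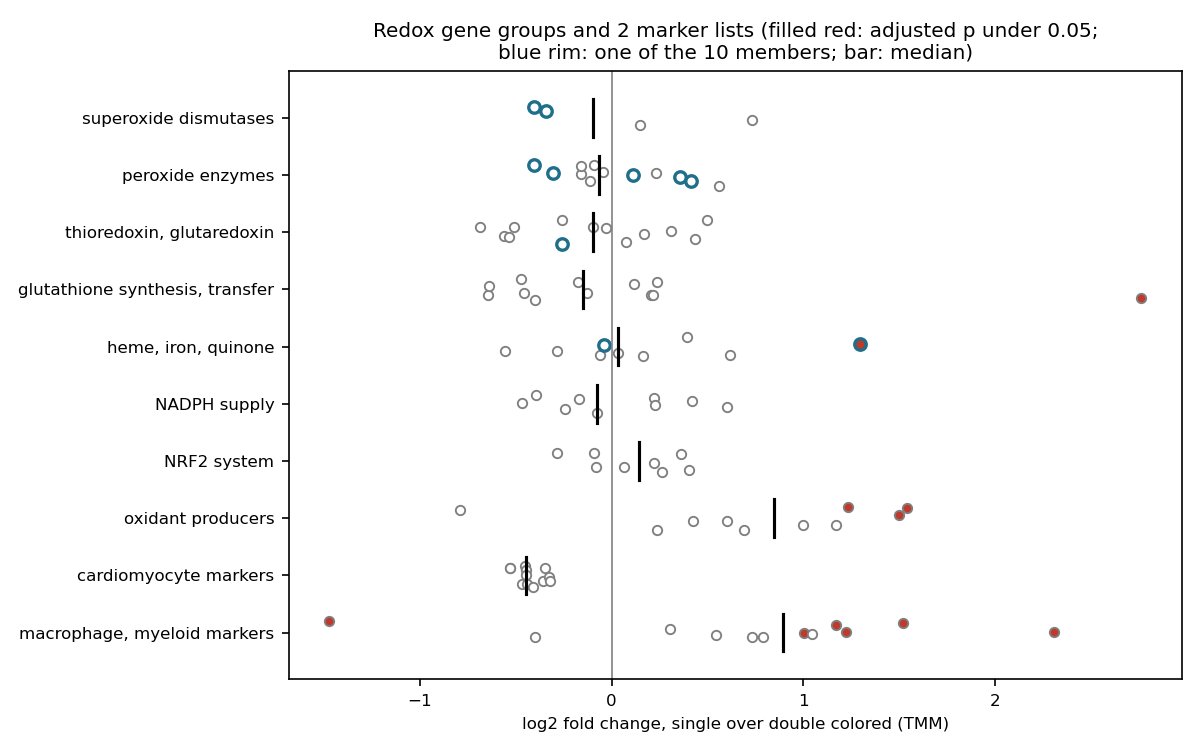
Log2 fold changes, single over double colored (x axis, TMM), of every tested gene in 8 redox groups and 2 marker lists (y axis), with blue rims for the 10 members, red fill for an adjusted p under 0.05 and a black bar for each group's median. The oxidant producers have a median of 0.85 and 3 filled points, the cardiomyocyte markers all lie below 0 with a median of −0.44, and Hmox1 is the filled point with a blue rim.

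In the authors' deposited table, whose fold changes were turned here to single over double colored, Hmox1 had a log2 fold change of 1.28 with a raw p of 0.00455 and an FDR of 0.245. The authors' deposited table gave the smallest FDR over 15711 genes as 0.185, so no member passed there.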

How the data were processed

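RNA of 8 libraries was extracted with the miRNeasy Micro Kit and amplified with the Ovation RNA-seq System v2, per the labels. The build mm9 and the tools STAR 2.5.2b and featureCounts of Subread are named, per the submitters' processing notes. The deposited values used are whole raw read counts, not estimated or expected counts, per the file headers; the log2 fold changes, p-values and FDR are the authors' deposited ones, from a test not given in the sources used here. Coordinates are mm9 as deposited, and symbols come from GENCODE vM21 for 32919 genes.

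Counts were tested with edgeR 4.0.16 (R 4.3.3): filterByExpr at a minimum count of 10, TMM factors (0.733 to 1.44), the robust quasi-likelihood F-test, and adjustment by Benjamini-Hochberg over 12466 genes at 0.05. SE were derived from the F statistic. The same code was tested on simulated counts. DESeq2 1.42.0, other scalings, filters, the replicate block and omissions of libraries were alternatives. The members and lists were chosen with earlier results of these data known. By rule, the genes named are the 10 members, called genes of the wider list, and up to 3 others per role group or marker list with the smallest p. Outside it, Prdx1, Gclm, Cd163, Mrc1, Dcn, Tcf21, Postn and library-specific values were added after values were seen. A gene that this rule names is not reported here.

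For libraries with the same number, deviations from the group means correlated by 0.126 to 0.257 across genes, and of other combinations by −0.213 to 0.108. The replicate block was therefore taken as pairing. The main test and the omissions of libraries used the group alone and ignored this pairing. What a number marks is not stated.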

Additional observations from a re-analysis of the deposited data

Results flagged for a closer look

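Sod1 in double colored replicate 1, at 32.6 CPM, lay apart from the next highest library of its group at 28.3 CPM: the gap was 0.872 of the group's range, above Dixon's critical value for 4 samples. This was 1 of 20 groups examined, and chance alone gives about 1 in 20. Without that library the log2 fold change of Sod1 was −0.29 (edgeR adjusted p = 0.370).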

How the results depend on the processing

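Of 169 values of the 10 members under 17 alternatives, 139 kept their direction and their side of the threshold. The count of genes called among all genes was 309, and 1390 with library totals alone, 805 with no filter, 97 with the filter at 5 CPM, 939 with the replicate block, 530 scaled to cardiomyocyte markers and 146 without both libraries numbered 1; the last 2 alternatives were chosen after seeing the data. DESeq2, run without that filter, called 559 of 23680 genes, of which 522 were among the 12466 genes of the edgeR test, so tool and filter changed together. Omitting 1 library gave 134 (without double colored replicate 4) to 304. The count of members called was 1, and 3 with library totals alone and 0 with the filter at 5 CPM, without both libraries numbered 1 and in 7 of 8 omissions (range 0 to 1). In the wider list it was 5 with Hmox1, and 15 with library totals alone, 11 with no filter, 2 with the filter at 5 CPM, 15 with the replicate block, 8 scaled to cardiomyocyte markers, 2 without both libraries numbered 1 and 1 to 5 in the omissions.

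Hmox1 had a log2 fold change of 1.35 with the filter at 5 CPM (edgeR adjusted p = 0.0656), 1.04 without both libraries numbered 1 (0.211) and 1.07 to 1.81 in the omissions (0.00341 to 0.138). It kept its call with other size factors, no filter, mitochondrial genes left out, the replicate block, cardiomyocyte-marker scaling and DESeq2. Signs turned with library totals alone and scaled to cardiomyocyte markers for Sod1 (0.13 and 0.15), Sod2 (0.049 and 0.013), Cat (0.17 and 0.17), Prdx3 (0.050 and 0.046), Txn2 (0.21 and 0.20), Nqo1 (0.46 and 0.41), Fech (0.18 and 0.20) and Nnt (0.061 and 0.045). Nqo1 was also at 0.000445 with the filter at 5 CPM, 0.15 without both libraries numbered 1 and between −0.34 and 0.12 in the omissions (0.02, 0.11, 0.08 and 0.12 where it turned), and Gpx4 at −0.25 to 0.26. Without single colored replicate 1, log2 fold changes moved by over 1.5 times for Sod3 (0.44), Idh2 (−0.27), Nnt (−0.24) and Gsta4 (−0.30), beside Txn2, Gpx1 and Sod2; without single colored replicate 3 they did for Sqstm1 (0.04) and Mafk (0.25), and without double colored replicate 1 for Bach1 (0.23). Slc40a1 lay at 0.35 to 1.08 in the omissions. The replicate block, taken as pairing, changed no member's call. It did bring several members closer to the threshold. Beside Hmox1 the lowest adjusted p with the block were 0.0512 (Sod2), 0.0516 (Prdx3), 0.0757 (Gpx3) and 0.103 (Sod1, edgeR). An unadjusted p under 0.05 was reached with the block by 7 of the 10 members and by 2586 of 12466 tested genes. Gpx4, with 21 to 77 reads a library, and Slc7a11, with 10 reads in double colored libraries, are limited by depth.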
